A study of Mus musculus with 18 samples.

Results

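The genes described here are 45 members of the DNA replication machinery, measured in 18 RNA sequencing libraries of organoids, self-organising epithelial cultures that form crypt-like structures, from mouse colon. They were chosen by gene name for their role in copying DNA, and all 45 were found by symbol in a table of 56748 genes. Cultures of 3 colon regions (proximal, mid, distal) were kept either in a differentiation medium or in the control medium, ENR with Wnt3a-conditioned medium, which the labels call the proliferative state. The media were applied 3 days after passaging, and each of the 6 groups (proximal, mid and distal differentiation, each with its control) has 3 libraries. The labels give no genotype, strain, sex or age, list no further allele or agent, and do not say whether the replicates were separate animals or cultures, so p-values measure only the spread between these libraries.

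DNA replication begins with licensing, in which the origin recognition complex, CDC6 and CDT1 load the MCM2 to MCM7 ring onto DNA in G1. CDC45 and the GINS complex then turn this ring into the active helicase, DNA polymerases alpha, delta and epsilon copy the strands, and the PCNA clamp, placed by replication factor C, holds the polymerases on DNA. Genes of this machinery are classic targets of E2F transcription factors at the step from G1 to S phase. In the colon, dividing cells sit in the lower crypt, and absorptive colonocytes at the surface have left the cell cycle.

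Levels are FPKM, fragments scaled by gene length and library size by the authors, so that genes of different length can be compared. Reads recovered from the FPKM summed to between 12827751 and 19938198 in each library. A gene was called when its Benjamini-Hochberg adjusted p was under 0.05 in a limma fit on log2(FPKM + 1) over 12896 genes that reached 1 FPKM in 3 or more libraries. All 45 members entered that fit. Of these, 15 reached an FPKM of 1 in fewer than 3 of the 9 differentiation libraries and so passed through their control values. Counts over the other 30 are given beside the counts of all members called and, for the medium, of the main roles. Counts of members whose groups did not overlap, and medians of the level kept, are over all 45. These 15 were Cdc45, Gins1, Gins2, Gins3, Mcm10, Orc1, Cdc6, Pola1, Prim1, Prim2, Pole, Pole2, Fen1, Clspn and Chaf1b. Their adjusted p-values for the medium carry that limit wherever they are printed below. As a check of the label, 12 listed colon epithelium genes summed to 17661 to 30422 FPKM in differentiation and 3817 to 6033 FPKM in control libraries. Of 8 listed fibroblast genes 5 to 6 were at 0 in differentiation and 4 to 6 in control libraries, and the list summed to 0.306 to 11.97 FPKM in differentiation and 0.0833 to 0.552 FPKM in control libraries, nearly all of it Pdgfrb in the highest, distal differentiation replicate 1 (11.9 FPKM). Lists of immune cells, endothelium, nerve and muscle summed to at most 0.684 FPKM in differentiation and 1.85 FPKM in control libraries. The part of such cells in the results was not tested.

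One library stood apart from its group. Proximal differentiation replicate 1 was the highest of its group for 45 of 45 members, a position it held for 38.2% of all tested genes. Averaged over the 45 members, log2(FPKM + 1) was 2.56, 1.29 and 1.44 in the 3 proximal differentiation libraries, against 3.03, 2.54 and 2.30 in the proximal controls. That library's value lies inside the control range, and replicates 2 and 3 lie below it. Proximal counts, and the proximal calls named below that turn on this library, are therefore given with and without replicate 1. Replicate 1 was set apart by the values of these same members. Leaving it out therefore lowers their proximal fold changes by construction, and the calls without it are not independent tests.

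**Figure D1:**
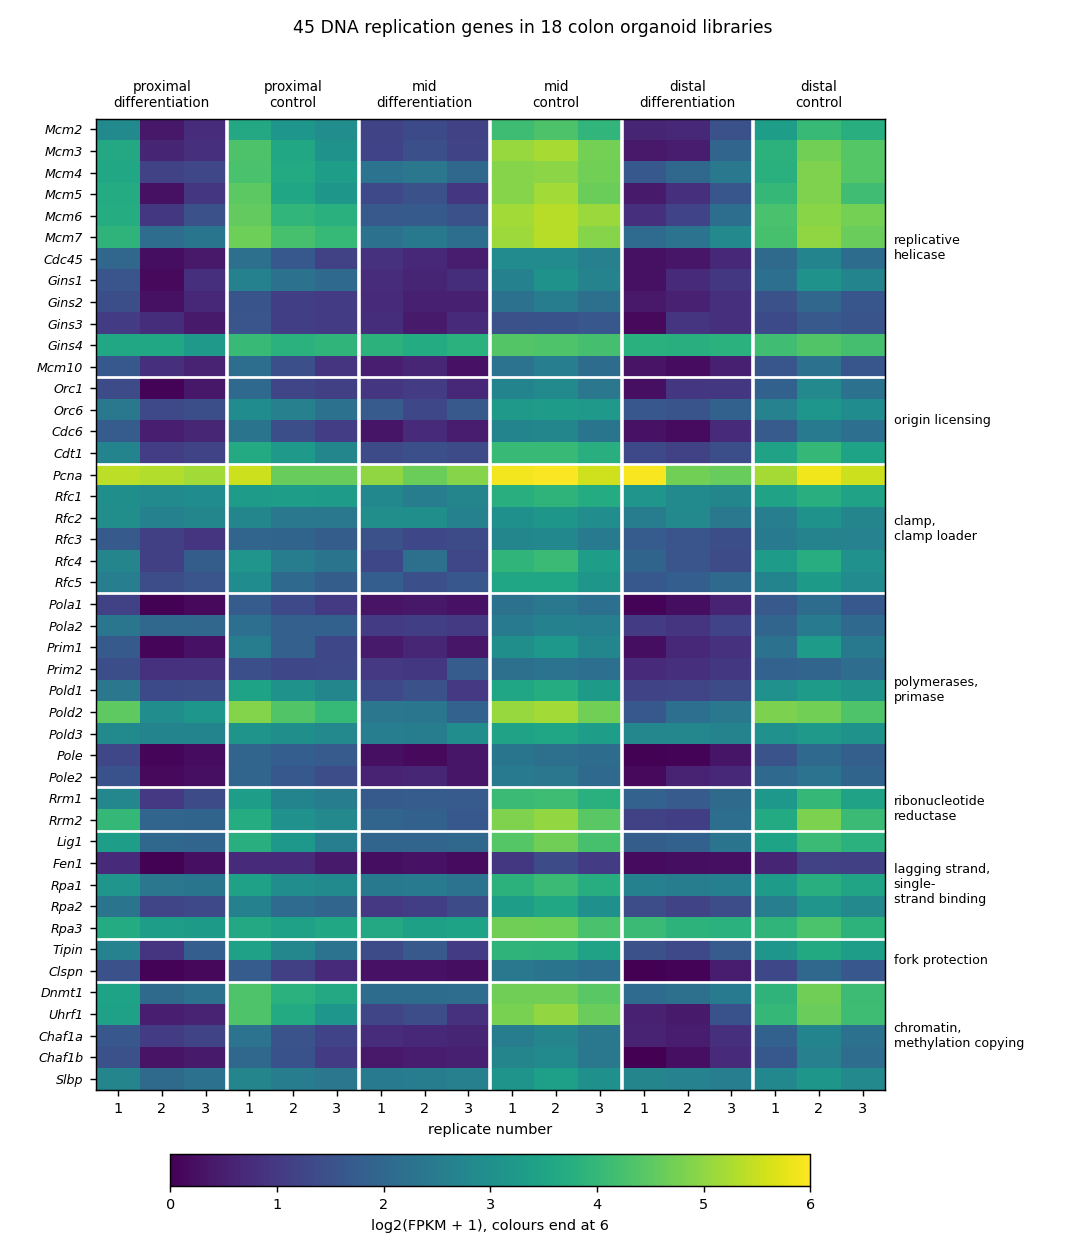
Level of each member as log2(FPKM + 1), coloured, with one row per gene grouped by role and one column per library (replicates 1 to 3 in each of the 6 groups). Differentiation columns are darker than their controls for most rows, except in proximal differentiation replicate 1. The rows of Pcna, Gins4 and Rpa3 stay among the brighter ones in both media, and Rfc2 keeps a middle colour in both.

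Nearly all of the replication genes were lower in differentiation medium in mid and distal organoids. In mid organoids 44 of 45 members fell and none rose, with a median log2 fold change of -2.03, against 0.00 for all tested genes, of which 32% were called lower. In distal organoids 41 of 45 fell and none rose, with a median of -1.64, while 31.3% of all tested genes were called lower. In proximal organoids 24 of 45 fell and none rose, with a median of -0.77, beside 26.2% of all tested genes. Without proximal differentiation replicate 1, 39 of 45 fell with a median of -1.20, and the share of all tested genes was 28.3%. The proximal count was 16 when differentiation replicate 2, differentiation replicate 3 or control replicate 1 was left out, 32 without control replicate 3, and 8 in a fit of the 6 proximal libraries alone.

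Over the 30 members that kept an FPKM of 1 in at least 3 differentiation libraries, 29 fell in mid, 26 in distal and 17 in proximal organoids, with 24 there without replicate 1. By role, 7 of 7 such helicase members fell in each region and 2 of 2 licensing members, while 4 of 4 polymerase members fell in mid and in distal organoids and 2 of 4 in proximal organoids. Of 4 such lagging strand members, 4 fell in mid, 3 in distal and 0 in proximal organoids. The differentiation and control libraries did not overlap for 44 members in mid organoids (36.8% of all tested genes) and for 42 in distal organoids (31.6%). In proximal organoids they did not overlap for 12 members, near the 29.6% of all tested genes, and for 41 when replicate 1 was left aside (37.2%). These counts and the medians that follow include the 15 members that passed through their control values. The median level kept, as a percentage of the control mean, was 13.1% in mid and 18.2% in distal differentiation libraries. It was 48.9% over the 3 proximal differentiation libraries, 89.3% in replicate 1 alone and 25.9% in replicates 2 and 3. In bulk RNA, fewer cells in S phase and less of these RNAs per cell cannot be told apart.

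**Figure D2:**
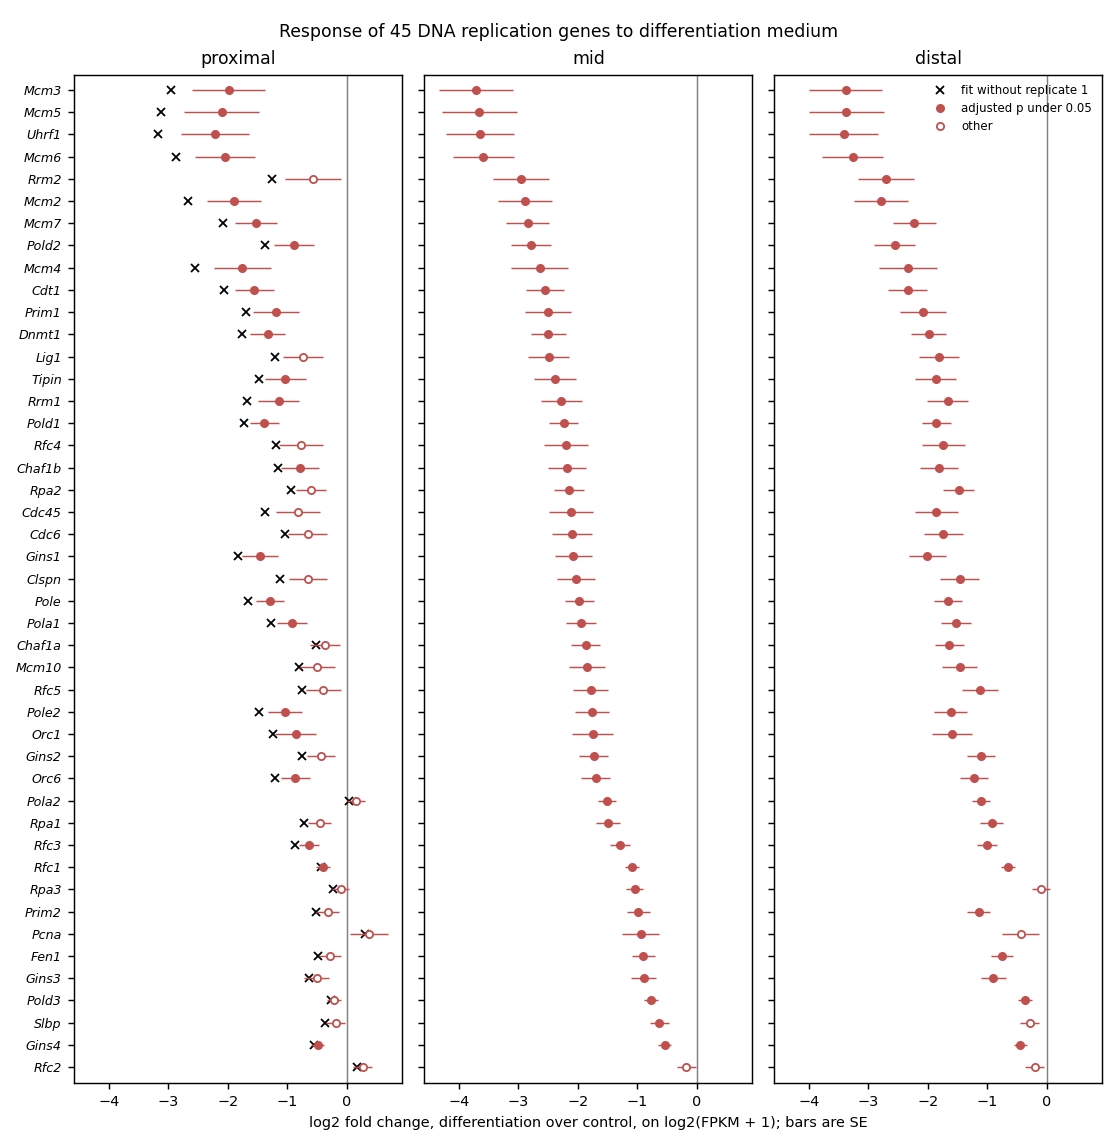
Log2 fold change of each member, differentiation over control, in proximal, mid and distal organoids, with genes ordered by the mid value and bars for the SE of the fit (3 libraries per group). Filled points passed the adjusted threshold, and crosses in the proximal panel show the fit without replicate 1, which lies left of the full fit for most genes. Rfc2 passed in no region.

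Mcm3, Mcm5 and Mcm6, subunits of the MCM ring, and Uhrf1 had the largest falls in mid organoids. The helicase group as a whole, 12 genes with the MCM subunits, CDC45, the GINS subunits and MCM10, fell for 12 of 12 in mid and 12 of 12 in distal organoids, with median log2 fold changes of -2.38 and -2.12, and for 8 of 12 in proximal organoids, median -1.49. Without replicate 1, 12 of 12 fell in proximal organoids, median -1.95. Mcm5, a subunit of the ring, had 1.51, 1.79 and 0.941 FPKM in mid differentiation libraries, against 29.1, 34.8 and 24.1 FPKM in mid controls. In distal organoids Mcm5 had 0.361, 0.787 and 2.07 FPKM in differentiation libraries, against 14.97, 27.7 and 16.9 FPKM in controls. These groups are far apart, with log2 fold changes of -3.65 ± 0.63 (SE, adjusted p = 0.000131) in mid and -3.37 ± 0.63 (adjusted p = 0.000272) in distal organoids. In proximal organoids Mcm5 had 11.8, 0.200 and 0.917 FPKM in differentiation libraries, against 21.4, 10.6 and 8.02 FPKM in controls. Replicate 1 lies inside the control range and replicates 2 and 3 lie far below, and the log2 fold change was -2.10 ± 0.63 (adjusted p = 0.0108).

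Mcm6, another ring subunit, had 2.21, 2.27 and 1.79 FPKM in mid differentiation libraries and 35.1, 40.0 and 33.3 FPKM in mid controls, a log2 fold change of -3.59 ± 0.51 (adjusted p = 2.40e-05). Mcm3 kept 4.65% of its control mean in mid and 6.11% in distal differentiation libraries, and Mcm2 kept 8.26% and 7.95%. More was kept of Mcm4 (13.1% in mid, 15.5% in distal organoids) and of Mcm7 (11.3% in mid, 18.2% in distal organoids). Mcm7 shares transcribed bases with Cops6 and Ap4m1 on the opposite strand, and without known strandedness their reads cannot be separated there.

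The 4 subunits of GINS, which bind each other in a single complex, spanned a wide range of fold changes, whose differences were not tested. Gins1 had 0.692, 0.538 and 0.720 FPKM in mid differentiation libraries, against 5.25, 7.35 and 5.41 FPKM in mid controls. Gins4 had 13.4, 11.9 and 13.2 FPKM in mid differentiation libraries, against 20.1, 19.2 and 17.8 FPKM in mid controls. The groups of Gins4 are separate but close, and its log2 fold change was -0.54 ± 0.11 (adjusted p = 0.000385), against -2.07 ± 0.31 for Gins1 (adjusted p = 3.44e-05). Gins4 kept 67.1% of its control level in mid, 71.8% in distal and 69.6% in proximal organoids, and fell in each. Gins2 kept 12.7% and Gins3 30.1% in mid organoids, though both were below 5 FPKM in every library, and Gins2 overlaps Gse1 on the opposite strand. Cdc45, which joins GINS on the MCM ring, kept 10.3% in mid and 9.22% in distal organoids, and Mcm10, which helps activate the helicase, kept 9.84% and 10.8%. Cdc45 overlaps Ufd1 on the opposite strand.

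Promoter windows of 3 MCM genes with some of the largest falls are shown with that of Rpa3, which was called in mid organoids and not in the other regions, so that the letters near their starts can be compared. These windows are examples and do not stand for the other members. The windows run from 250 bases before to 50 bases after the annotated start, are from RefSeq on GRCm38.p6 and read 5′ to 3′ on the gene's strand. Capitals mark the E2F spellings TTTCCCGC, TTTCGCGC, TTTGCCGC and TTTGGCGC and the NF-Y spelling CCAAT, on either strand. The Mcm3 window lies at chr1:20820263-20820562 on the minus strand, Mcm5 at chr8:75109259-75109558 on the plus strand, Mcm6 at chr1:128359656-128359955 on the minus strand and Rpa3 at chr6:8259092-8259391 on the minus strand.
Mcm3: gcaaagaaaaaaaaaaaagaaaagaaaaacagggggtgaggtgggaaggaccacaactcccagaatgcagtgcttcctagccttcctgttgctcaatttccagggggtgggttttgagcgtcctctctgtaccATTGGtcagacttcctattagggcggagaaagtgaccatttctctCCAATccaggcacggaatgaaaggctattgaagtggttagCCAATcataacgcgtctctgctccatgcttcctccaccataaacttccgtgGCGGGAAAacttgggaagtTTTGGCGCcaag
Mcm5: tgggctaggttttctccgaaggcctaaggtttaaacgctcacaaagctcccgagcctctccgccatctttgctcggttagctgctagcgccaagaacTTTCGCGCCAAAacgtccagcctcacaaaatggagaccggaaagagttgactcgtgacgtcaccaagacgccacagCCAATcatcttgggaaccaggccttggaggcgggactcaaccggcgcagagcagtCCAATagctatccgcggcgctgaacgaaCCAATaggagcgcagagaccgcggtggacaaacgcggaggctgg
Mcm6: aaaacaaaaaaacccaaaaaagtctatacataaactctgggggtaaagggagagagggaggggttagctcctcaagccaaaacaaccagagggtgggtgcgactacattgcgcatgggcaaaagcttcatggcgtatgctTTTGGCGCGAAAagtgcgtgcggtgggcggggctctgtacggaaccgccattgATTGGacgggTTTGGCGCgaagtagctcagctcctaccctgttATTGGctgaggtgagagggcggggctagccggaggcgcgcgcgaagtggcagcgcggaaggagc
Rpa3: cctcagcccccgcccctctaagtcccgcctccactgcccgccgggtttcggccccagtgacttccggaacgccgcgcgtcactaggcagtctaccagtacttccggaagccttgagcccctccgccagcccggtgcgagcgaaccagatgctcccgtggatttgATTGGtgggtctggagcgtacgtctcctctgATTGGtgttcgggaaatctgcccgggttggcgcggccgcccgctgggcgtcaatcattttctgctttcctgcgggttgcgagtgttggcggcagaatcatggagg

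The Mcm3 window holds 2 E2F spellings and 3 CCAAT, the Mcm5 window 2 E2F spellings that overlap each other and 3 CCAAT, and the Mcm6 window 3 E2F spellings, of which an upstream pair overlap, and 2 CCAAT. The Rpa3 window holds 2 CCAAT and no E2F spelling. Windows were found for 37 of the 45 members, and 17 of the 37 held an E2F spelling in any of their windows (45.95%), against 4.77% of 9178 tested genes with a window and 2.605% of all 27025 genes with one. CCAAT stood in 26 of 37 members (70.3%) and in 42.95% of the tested genes. The cell cycle homology region spellings TTTGAA and TTCGAA stood in 8 of 37 members (21.6%) and in 16.4% of the tested genes. The 17 members with an E2F spelling had median log2 fold changes of -2.24 in mid and -1.82 in distal organoids, and the 20 without had -1.86 and -1.475, with ranges in mid of -3.71 to -0.77 and -2.96 to -0.63. For CCAAT the medians in mid and distal organoids were -2.07 and -1.62 in the 26 members with it, and -2.10 and -1.74 in the 11 without. For the cell cycle homology region they were -2.305 and -1.92 in the 8 with it, and -2.03 and -1.62 in the 29 without. None of these differences was tested. A spelling is a run of letters and not a bound site, and Mcm2 and Rrm2, with no E2F spelling in their windows, had mid fold changes of -2.89 and -2.96. Pold3 and Gins3, with 1 E2F spelling each, had mid fold changes of -0.77 and -0.89. Gins3 had only 1.78, 1.83 and 2.12 FPKM in mid controls, so the pseudocount understates its fall. It kept 30.1% of its control mean in mid organoids, and Pold3 kept 55.0%.

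Origin licensing genes fell for 4 of 4 members in mid, 4 of 4 in distal and 3 of 4 in proximal organoids, and for 4 of 4 there without replicate 1. Cdt1, the MCM loading factor, had 1.65, 1.76 and 1.60 FPKM in mid differentiation libraries, against 15.6, 15.8 and 12.7 FPKM in mid controls, a log2 fold change of -2.55 ± 0.33 (adjusted p = 9.33e-06). In proximal organoids Cdt1 had 5.49, 1.12 and 1.33 FPKM in differentiation libraries and 11.8, 8.47 and 5.73 FPKM in controls. For Cdt1 even the high replicate 1 lies just under the lowest control, and the log2 fold change was -1.56 ± 0.33 (adjusted p = 0.00102). Cdc6, its partner in loading, kept 8.30% in mid and 9.61% in distal organoids, and was not called in proximal organoids, at -0.66 ± 0.33 (adjusted p = 0.104), where replicate 1 had 2.33 FPKM against 1.13 to 3.97 FPKM in controls. Without replicate 1 Cdc6 was called lower there, at -1.05 ± 0.30 (adjusted p = 0.00874). Orc1, the largest subunit of the origin recognition complex, kept 16.3% in mid and 16.5% in distal organoids, and Orc6 kept 23.0% and 33.7%. Orc6 overlaps Vps35 on the opposite strand.

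The clamp and its loader, 6 genes, had median log2 fold changes of -1.19 in mid, -0.83 in distal and -0.40 in proximal organoids, the nearest to 0 of the roles. Pcna, the sliding clamp, was the member with the highest mean level, 39.1 FPKM over all 18 libraries. It had 30.9, 24.1 and 29.2 FPKM in mid differentiation libraries, against 58.1, 61.2 and 46.0 FPKM in mid controls, a log2 fold change of -0.95 ± 0.31 (adjusted p = 0.0151). In distal organoids it had 60.7, 25.3 and 23.2 FPKM in differentiation libraries and 35.4, 57.1 and 45.5 FPKM in controls, so that the groups overlapped and no difference was called (-0.44 ± 0.31, adjusted p = 0.230). With libraries rescaled to their summed reads Pcna was called lower there, at -0.89 (adjusted p = 0.0144), on a scale where the median of all tested genes was -0.34. In proximal organoids Pcna had 41.6, 38.3 and 34.7 FPKM in differentiation libraries, against 45.4, 23.5 and 23.2 FPKM in controls (0.37 ± 0.31, adjusted p = 0.328). PCNA also works in DNA repair, outside S phase.

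Replication factor C is a ring of 5 subunits, and its RNAs split. Rfc2, called in no region on the deposited scale, had 6.86, 6.87 and 5.17 FPKM in mid differentiation libraries, against 7.12, 7.97 and 6.62 FPKM in mid controls (-0.18 ± 0.16, adjusted p = 0.339). That depended on the scaling. With libraries rescaled to their summed reads Rfc2 was called lower in mid (-0.56, adjusted p = 0.0155) and in distal organoids (-0.59, adjusted p = 0.0112). On that scale the median of all tested genes was itself -0.33 in mid and -0.34 in distal organoids, so part of these values is a shift shared by all genes. Rfc4 had 1.45, 3.64 and 1.42 FPKM in mid differentiation libraries, against 14.2, 16.2 and 9.26 FPKM in mid controls (-2.20 ± 0.36, adjusted p = 9.46e-05). The subunits Rfc3, Rfc4 and Rfc5 kept 30.1%, 16.4% and 21.7% in mid organoids, and Rfc1, the large subunit, kept 42.7% in mid, 60.7% in distal and 73.0% in proximal organoids, falling in each. Rfc4 overlaps the abundant Eif4a2 and Rfc5 overlaps Wsb2, both on the opposite strand.

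**Figure D3:**
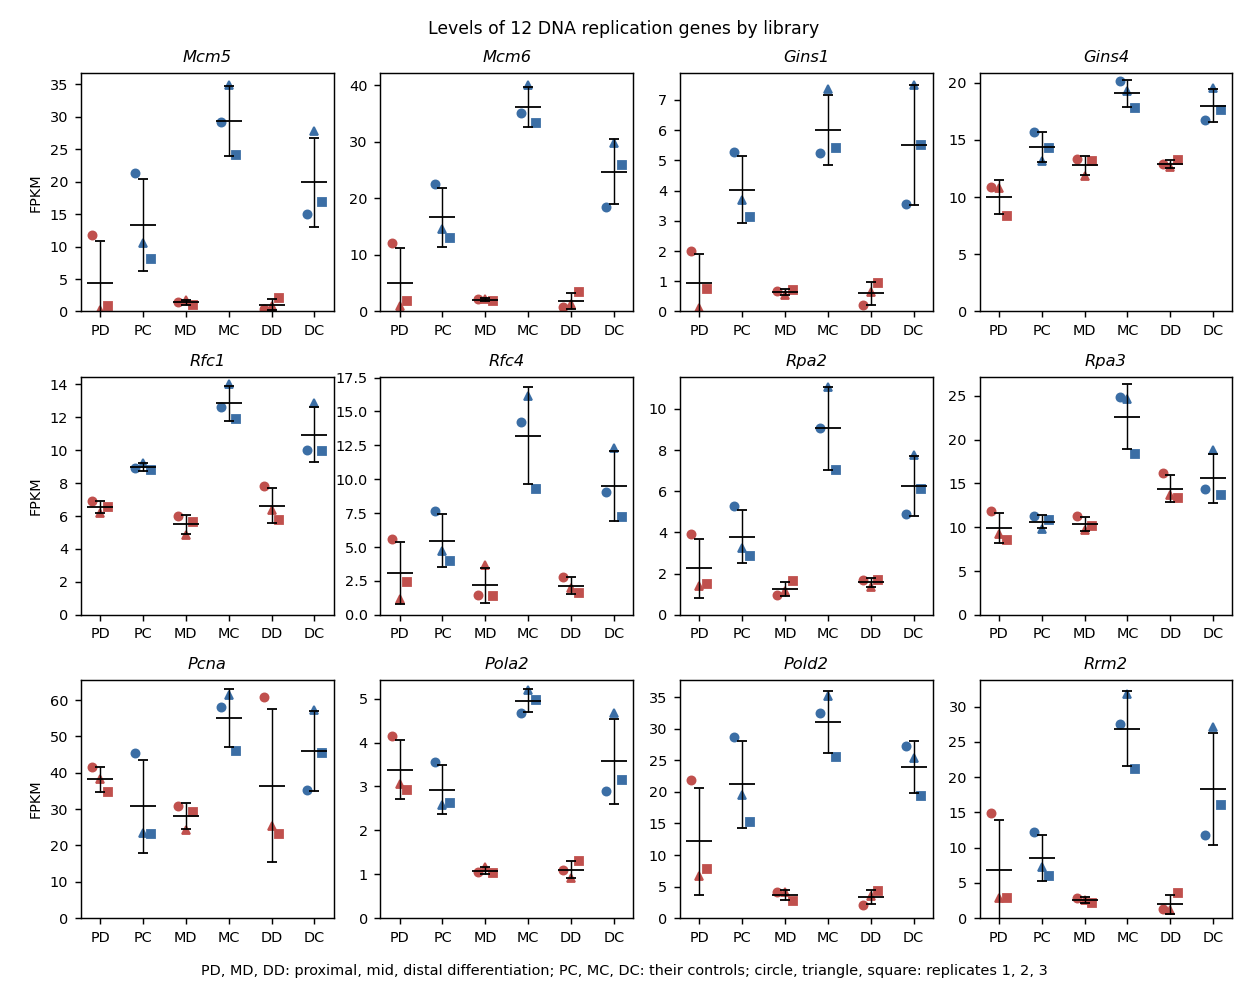
FPKM of 12 members in every library, with replicates 1, 2 and 3 as circle, triangle and square, differentiation in red and control in blue, and bars for the mean and SD of 3 libraries. The mid groups of Gins4, Rfc1 and Rpa3 lie nearer to each other, relative to their level, than those of Gins1, Rfc4 and Rpa2, the proximal groups of Pola2 overlap, and replicate 1 is the highest proximal differentiation point in each panel.

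The polymerase and primase genes fell for 9 of 9 members in mid and 9 of 9 in distal organoids, and for 6 of 9 in proximal organoids, or 7 of 9 there without replicate 1. Pole, the catalytic subunit of the leading-strand polymerase epsilon, had 0.188, 0.112 and 0.288 FPKM in mid differentiation libraries, against 4.04, 3.67 and 3.38 FPKM in mid controls. It had 0.0185, 0.0379 and 0.266 FPKM in distal differentiation libraries, against 1.88, 3.17 and 2.54 FPKM in distal controls, which is 2, 7 and 41 reads against 427, 741 and 507. Pole kept 4.24% of its control level in distal organoids, the lowest share of the 45 members there. Its fold changes, -1.97 ± 0.24 in mid and -1.66 ± 0.24 in distal organoids (adjusted p = 5.57e-06 and 2.88e-05), are understated by the pseudocount of 1 at such levels. Prim1, the catalytic primase subunit, kept 5.72% in mid and 9.26% in distal organoids, whereas its partner Prim2 kept 39.2% and 26.9%, with mid differentiation replicate 3 at 2.37 FPKM beside 0.994 and 0.971 FPKM in replicates 1 and 2.

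Polymerase delta also had members that kept much of their level. Pold3, an accessory subunit, had 5.84, 5.87 and 5.39 FPKM in distal differentiation libraries, against 7.20, 8.52 and 7.38 FPKM in distal controls (-0.37 ± 0.12, adjusted p = 0.0121). The catalytic subunit Pold1 had 1.34, 1.39 and 1.58 FPKM in distal differentiation libraries, against 7.26, 8.99 and 7.31 FPKM in distal controls (-1.86 ± 0.24, adjusted p = 1.19e-05). Thus Pold3 kept 74.1% and Pold1 18.3% of the control level in distal organoids.

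Pola2, the accessory subunit of polymerase alpha, differed by region. It had 4.16, 3.06 and 2.93 FPKM in proximal differentiation libraries, against 3.57, 2.58 and 2.62 FPKM in proximal controls, and was not called (0.16 ± 0.15, adjusted p = 0.390). In mid organoids it had 1.05, 1.17 and 1.02 FPKM in differentiation libraries, against 4.68, 5.20 and 4.98 FPKM in controls. In distal organoids it had 1.11, 0.911 and 1.31 FPKM in differentiation libraries, against 2.89, 4.68 and 3.15 FPKM in controls. The 3 proximal differentiation libraries, replicates 2 and 3 included, thus lie above all 6 mid and distal differentiation libraries. Its medium response was lower by 1.67 ± 0.21 on the log2 scale in mid than in proximal organoids (adjusted p = 0.000158) and by 1.26 ± 0.21 in distal than in proximal organoids (adjusted p = 0.00173). Pola1, the catalytic subunit of the same enzyme, fell in all 3 regions, by 0.92 ± 0.26 in proximal organoids (adjusted p = 0.00696).

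Both ribonucleotide reductase genes, which make the deoxynucleotides for DNA synthesis, fell in mid and distal organoids. Rrm2, the subunit that is limiting in S phase, had 2.89, 2.62 and 2.14 FPKM in mid differentiation libraries, against 27.5, 31.8 and 21.2 FPKM in mid controls (-2.96 ± 0.47, adjusted p = 6.23e-05). In proximal organoids Rrm2 had 14.9, 2.85 and 2.81 FPKM in differentiation libraries, against 12.2, 7.23 and 6.04 FPKM in controls. Replicate 1 stands above every proximal control, and Rrm2 was not called there (-0.57 ± 0.47, adjusted p = 0.317), whereas without replicate 1 it was called at -1.26 ± 0.35 (adjusted p = 0.00726). Rrm1, the large subunit, kept 15.3% in mid, 24.6% in distal and 43.2% in proximal organoids and fell in all 3.

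Of the lagging strand and single-strand binding genes, 5 of 5 fell in mid, 4 of 5 in distal and 0 of 5 in proximal organoids. The adjusted p-values from limma in proximal organoids were 0.0606 for Rpa2, 0.0607 for Rpa1, 0.0782 for Lig1, 0.217 for Fen1 and 0.568 for Rpa3, and over all members 24 were called lower against 29 at an unadjusted p under 0.05. Without replicate 1, 4 of the 5 were called lower there, Rpa1 at -0.71 (adjusted p = 0.00228), Rpa2 at -0.94 (adjusted p = 0.00217), Lig1 at -1.20 (adjusted p = 0.00197) and Fen1 at -0.48 (adjusted p = 0.0329). Lig1, which seals Okazaki fragments, had 2.87, 2.88 and 2.998 FPKM in mid differentiation libraries, against 20.5, 24.9 and 18.2 FPKM in mid controls (-2.49 ± 0.34, adjusted p = 1.63e-05). The RPA trimer that coats single-stranded DNA was uneven. Rpa2 had 1.69, 1.33 and 1.69 FPKM in distal differentiation libraries, against 4.89, 7.78 and 6.13 FPKM in distal controls (-1.48 ± 0.26, adjusted p = 0.000154). Rpa3 had 16.1, 13.7 and 13.3 FPKM in distal differentiation libraries, against 14.3, 18.8 and 13.6 FPKM in distal controls, overlapping groups with no call (-0.10 ± 0.15, adjusted p = 0.572). It was called lower there on libraries rescaled to their summed reads (-0.53, adjusted p = 0.0111), where the median of all tested genes was -0.34. Rpa3 did fall in mid organoids, to 11.3, 9.71 and 10.1 FPKM in differentiation libraries, against 24.8, 24.6 and 18.4 FPKM in controls. Fen1, the flap endonuclease, was the lowest member as counted, with 0.562 FPKM on average and at most 1.58 FPKM. On the opposite strand its gene overlaps Tmem258 over 156 bases and the long non-coding RNA Gm10143 over 3253 bases. Without known strandedness reads there cannot be separated, and the part of these overlaps in the low level of Fen1 was not tested.

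Fork protection and the copying of chromatin followed the same direction. Clspn, an adaptor of the replication checkpoint, kept 5.17% in mid and 6.80% in distal organoids, and Tipin, of the fork protection complex, kept 12.9% and 19.6%. Uhrf1, which brings DNMT1 to newly copied DNA, had 0.460, 0.355 and 1.87 FPKM in distal differentiation libraries, against 14.9, 23.7 and 16.5 FPKM in distal controls (-3.41 ± 0.58, adjusted p = 0.000121), the largest fall of a member there. Dnmt1, the maintenance DNA methyltransferase, had 3.25, 3.66 and 4.51 FPKM in distal differentiation libraries, against 13.98, 25.0 and 16.4 FPKM in distal controls (-1.99 ± 0.29, adjusted p = 3.83e-05). Chaf1a and Chaf1b, subunits of the CAF-1 histone chaperone, kept 12.5% and 7.22% in mid organoids, and Chaf1a overlaps Ubxn6 on the opposite strand. Slbp, which binds the stem-loop of histone messages, kept 59.96% in mid and 78.9% in distal organoids and was called in mid organoids (-0.63 ± 0.16, adjusted p = 0.00303) and, without replicate 1, in proximal organoids (-0.37, adjusted p = 0.0380).

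Proximal differentiation replicate 1 had replication gene levels near its controls and crypt stem cell gene levels far below them. It lay inside the proximal control range for 28 members, below it for 12 and above it for 5 (Rrm2, Fen1, Pola2, Rfc2 and Rpa3). It was above all 8 other differentiation libraries for 37 of 45 members, against 21.5% of all tested genes. The median ratio to the mean of replicates 2 and 3 was 3.36, with 25.8 for Clspn, 21.3 for Uhrf1 and 21.2 for Mcm5 at one end and 1.09 for Rfc1, 1.11 for Pold3 and 1.13 for Gins4 at the other. Members took 0.126% of reads in that library, 0.0387% to 0.0509% in the 8 other differentiation libraries and 0.114% to 0.333% in the 9 controls.

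Averaged over 10 crypt stem cell genes, log2(FPKM + 1) was 2.0, 1.46 and 1.52 in the 3 proximal differentiation libraries and 3.41 to 3.48 in the proximal controls. Averaged over 10 absorptive colonocyte genes, it was 5.92, 6.52 and 6.37 in the proximal differentiation libraries and 2.06 to 2.77 in the proximal controls. By both lists replicate 1 sits with the differentiation libraries, though it is the nearest of the 3 to the controls. Colonocyte genes such as Krt20 had 519 FPKM in replicate 1, 827 and 743 FPKM in replicates 2 and 3, and 34.3 to 56.5 FPKM in the controls. What set this library apart was not tested, and the labels name no batch.

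**Figure D4:**
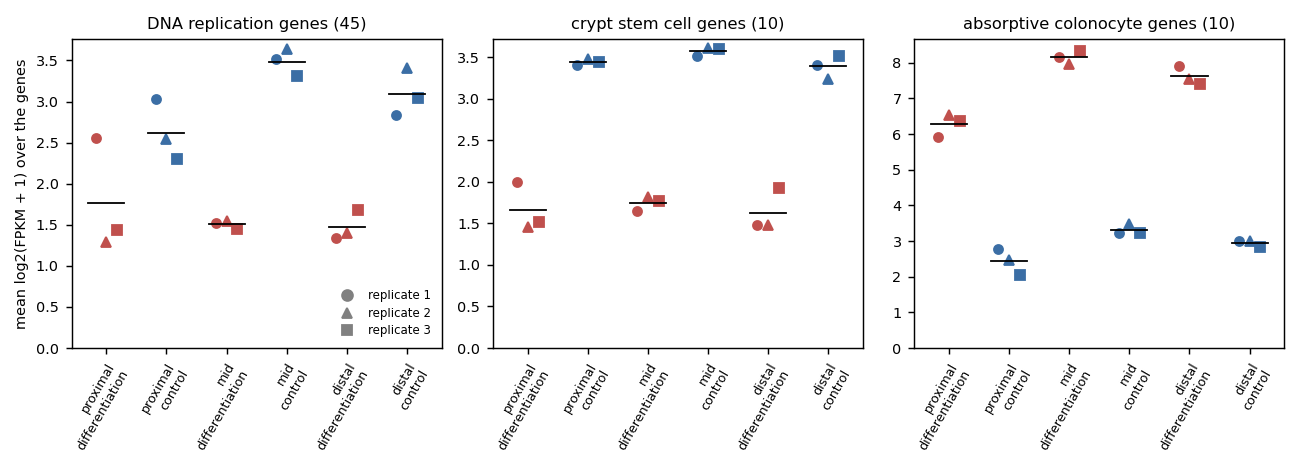
Mean log2(FPKM + 1) over the 45 DNA replication genes, 10 crypt stem cell genes and 10 absorptive colonocyte genes in each library, with red for differentiation, blue for control and bars for the mean of 3 libraries. Proximal differentiation replicate 1 reaches 2.56 for the replication genes, among the proximal controls, but 2.0 and 5.92 for the other lists, near the other differentiation libraries.

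Other libraries also ordered the members together. Proximal control replicate 1 was the highest of its group for 43 members and replicate 3 the lowest for 41 (44.9% and 32.7% of all tested genes). Distal control replicate 2 was highest for 43, mid control replicate 2 for 37 and distal differentiation replicate 3 for 35, where the shares of all tested genes were 36.0%, 33.3% and 34.9%. Counts of members therefore move together when 1 library is left out, and the members are not independent of each other.

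In control medium the replication genes were higher in mid than in proximal organoids. All 45 fitted differences were above 0, 22 members were called higher and none lower, and the median log2 difference was 0.89, while 7.99% of all tested genes were called higher and 5.28% lower. Of the 30 members that reached an FPKM of 1 in at least 3 differentiation libraries, 16 were called higher. The groups did not overlap for 40 members, against 23.1% of all tested genes. Rrm2 had 27.5, 31.8 and 21.2 FPKM in mid controls, against 12.2, 7.23 and 6.04 FPKM in proximal controls (1.59 ± 0.47, adjusted p = 0.0352). Lig1 had 20.5, 24.9 and 18.2 FPKM in mid controls, against 12.9, 8.11 and 4.88 FPKM in proximal controls (1.28 ± 0.34, adjusted p = 0.0202). Every mid library is above every proximal one for both genes. Orc1 (1.17 ± 0.34, adjusted p = 0.0315) and Rfc5 (1.17 ± 0.30, adjusted p = 0.0164) were the next largest of the called members. Mcm3 (1.34) and Mcm5 (1.18) had differences of like size that were not called (adjusted p = 0.175 and 0.249). The number of calls depended on single libraries, with 29 without proximal control replicate 1, 5 and 4 without replicates 2 and 3, and 9, 4 and 17 without mid control replicates 1, 2 and 3.

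By their median, distal controls lay between. Against proximal controls, 3 members were called higher, near the 5.57% of all tested genes, with a median over the members of 0.48. These were Rfc3 (0.71 ± 0.17, adjusted p = 0.0110), Prim2 (0.62 ± 0.19, adjusted p = 0.0496) and Rpa3 (0.50 ± 0.15, adjusted p = 0.0398), and without proximal control replicate 3 none was called. Of the same 30 members, 2 were called. The distal and proximal controls did not overlap for 6 members, not above the 15.5% of all tested genes. Neither this count nor that of the 3 called members is read as a result about the members. Rfc3, a clamp loader subunit, had 4.49, 5.45 and 5.30 FPKM in distal controls, against 2.90, 2.79 and 2.42 FPKM in proximal controls. Against mid controls, 0 members were called by limma in distal controls (0.186% of all tested genes lower, 0.14% higher), with 4 lower at an unadjusted p under 0.05 and 0 called by limma voom on recovered reads. The median difference was -0.40, with a smallest adjusted p of 0.278.

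Between regions in differentiation medium few members were called. Distal against proximal differentiation libraries gave 2 members lower and 2 higher, beside 14.3% and 15.6% of all tested genes, and mid against proximal gave 2 lower and 1 higher, beside 13.7% and 15.6%. Without proximal replicate 1, distal against proximal gave 2 lower and 5 higher (14% and 14% of all tested genes), and mid against proximal gave 2 lower and 3 higher (13.8% and 14.2%). The sign of most fitted differences turned on that library. Of the 45, 37 were below 0 in distal and 36 in mid libraries with it, and 12 and 13 without it. Mcm3 stood at -0.73 in distal libraries with it and 0.24 without it, and Uhrf1 at -0.67 and 0.29, with no call in either fit. All members called in these fits belong to the same 30. The lower members were Pola2 and Pold2 in each case, with Pola2 at -1.05 ± 0.15 in distal (adjusted p = 8.09e-05) and -1.06 ± 0.15 in mid libraries (adjusted p = 7.89e-05). Pold2, a small subunit of polymerase delta, had 2.12, 3.54 and 4.27 FPKM in distal and 4.22, 4.10 and 2.72 FPKM in mid differentiation libraries, against 21.9, 6.74 and 7.85 FPKM in proximal differentiation libraries. Without proximal replicate 1 Pold2 was still called, at -0.97 ± 0.26 in distal (adjusted p = 0.0125) and -0.84 ± 0.26 in mid libraries (adjusted p = 0.0275). Gins4 was higher in distal (0.35 ± 0.11, adjusted p = 0.0209) and mid libraries (0.33 ± 0.11, adjusted p = 0.0261), and Rpa3 was higher in distal ones (0.51 ± 0.15, adjusted p = 0.0162). Those higher calls were lost when libraries were rescaled to their summed reads and by limma voom on recovered reads. Without proximal replicate 1 Gins4 and Rpa3 were again higher in distal libraries, with Slbp (0.48), Rrm1 (0.71) and Rfc3 (0.58), and Gins4, Rfc3 (0.38) and Mcm4 (1.01, adjusted p = 0.0187) in mid libraries. Distal against mid differentiation libraries gave 0 calls by limma (0.481% and 0.209% of all tested genes), with 1 at an unadjusted p under 0.05 and 0 by limma voom.

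The medium response itself differed between mid and proximal organoids for 13 members, all with the larger fall in mid, beside 6.37% of all tested genes lower and 5.62% higher, and 11 of these 13 were among the same 30. These were Gins2, Mcm10, Rfc1, Rfc5, Pola2, Pold2, Pold3, Rrm2, Lig1, Rpa1, Rpa2, Rpa3 and Chaf1a. The largest differences were -2.39 ± 0.66 for Rrm2 (adjusted p = 0.0288), -1.89 ± 0.48 for Pold2 (adjusted p = 0.0188), -1.75 ± 0.48 for Lig1 (adjusted p = 0.0269) and -1.67 ± 0.21 for Pola2 (adjusted p = 0.000158). Without proximal differentiation replicate 1, 10 members were called lower (6.78% of all tested genes lower, 5.36% higher), with -1.70 ± 0.47 for Rrm2, -1.40 ± 0.35 for Pold2, -1.29 ± 0.37 for Lig1 and -1.55 ± 0.21 for Pola2. Distal and proximal responses differed for 3 members, Pold2 (-1.67 ± 0.48, adjusted p = 0.0439), Chaf1a (-1.27 ± 0.35, adjusted p = 0.0365) and Pola2, a count not far from the 4.09% of all tested genes. Without replicate 1 this held for Pola2 alone (4.3% lower, 3.61% higher). Both contrasts share the proximal libraries, and the part of the higher mid controls in the mid difference was not tested.

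Genes around the replication machinery were read from lists that hold none of the 45. Of 33 tested other replication factors, 26 fell and 2 rose in mid, 24 fell and 3 rose in distal, and 15 fell and 2 rose in proximal organoids, with 22 and 2 there without replicate 1. Of all tested genes, 32% were called lower and 31.5% higher in mid, 31.3% and 31.6% in distal, and 26.2% and 27.6% in proximal organoids, or 28.3% and 29.4% there without replicate 1. These shares are the background for each list below. Of the 35 listed other replication factors, 33 to 34 reached an FPKM of 1 in mid controls and 21 to 22 in mid differentiation libraries. Genes of these lists could thus pass the filter through their control values, and their counts of falls carry that limit. Timeless, the partner of Tipin, fell by 2.14 ± 0.31 in mid, 1.80 ± 0.31 in distal and 1.01 ± 0.31 in proximal organoids. Topbp1, an activator of ATR, fell in each region, and the histone chaperone Asf1b fell in mid and distal organoids by 2.83 and 2.56. Tonsl, which recognises newly made histones, rose in each region, by 0.74 ± 0.18 in proximal, 0.57 ± 0.18 in mid and 0.83 ± 0.18 in distal organoids, and Mcmbp, an MCM-binding protein, rose in mid and distal organoids.

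Of 10 genes of deoxynucleotide supply, 7 fell and 1 rose in mid, 7 fell and 2 rose in distal, and 3 fell in proximal organoids, with 5 lower and 1 higher there without replicate 1. The proximal 3 of 10 is near the 26.2% of all tested genes called lower. Dctd, dCMP deaminase, had 2.56, 0.351 and 0.413 FPKM in proximal differentiation libraries, against 8.999, 9.49 and 8.17 FPKM in proximal controls. Replicate 1 was the highest of the 3 but below every control, and the fall of 2.38 ± 0.29 in proximal organoids was close to 2.34 ± 0.29 in mid and 2.52 ± 0.29 in distal organoids. Dtymk, thymidylate kinase, fell in each region, and Dut, the dUTPase, fell in mid and distal organoids. Tk2, the mitochondrial thymidine kinase, rose in mid and distal organoids by 0.71 ± 0.19 and 0.54 ± 0.19.

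Of 25 regulators of the G1 to S step, 17 fell and 4 rose in mid, 15 fell and 3 rose in distal, and 9 fell and 6 rose in proximal organoids, with 14 lower and 5 higher there without replicate 1. The proximal counts, beside 26.2% of all tested genes lower and 27.6% higher, lie nearer to the background than those of mid and distal organoids. Cdk4, the cyclin D kinase, had 26.4, 10.1 and 12.4 FPKM in proximal differentiation libraries, against 52.8, 58.5 and 54.1 FPKM in proximal controls, with log2 fold changes of -1.81 ± 0.27 in proximal, -2.40 ± 0.27 in mid and -2.52 ± 0.27 in distal organoids. Ccnd1, cyclin D1, fell in each region, and Ccna2, cyclin A2, fell in mid and distal organoids. Rb1, the retinoblastoma protein that restrains E2F, rose by 2.02 ± 0.28 in proximal, 1.14 ± 0.28 in mid and 1.45 ± 0.28 in distal organoids, and E2f5 and Rbl2, of the repressive E2F and pocket protein families, rose in each.

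Of 7 cyclin-dependent kinase inhibitors, none fell and 6 rose in proximal (also without replicate 1), 1 fell and 3 rose in mid, and 1 fell and 5 rose in distal organoids. The share called higher over all tested genes was 27.6% in proximal, 31.5% in mid and 31.6% in distal organoids, so the 3 of 7 in mid organoids is not far from it. Cdkn1a, p21, had 286, 231 and 313 FPKM in mid differentiation libraries, against 67.5, 60.005 and 54.5 FPKM in mid controls (2.16 ± 0.17). It had 138, 185 and 159 FPKM in proximal differentiation libraries, against 71.7, 75.4 and 73.4 FPKM in proximal controls (1.11 ± 0.17), so that replicate 1 had the lowest Cdkn1a of the 3. Cdkn1c and Cdkn2b also rose in each region, and Cdkn2c, p18, was the one that fell, by 2.04 ± 0.22 in mid and 1.34 ± 0.22 in distal organoids. Of 10 S-phase checkpoint genes, 8 fell in mid, 9 in distal and 6 in proximal organoids and none rose, with 7 in proximal organoids without replicate 1 and 8 in distal organoids with replicate numbers as pairs, and in mid organoids Chek1 fell by 1.71 ± 0.20, Hus1 by 1.02 ± 0.19 and Cdc25b by 1.95 ± 0.25.

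**Figure D5:**
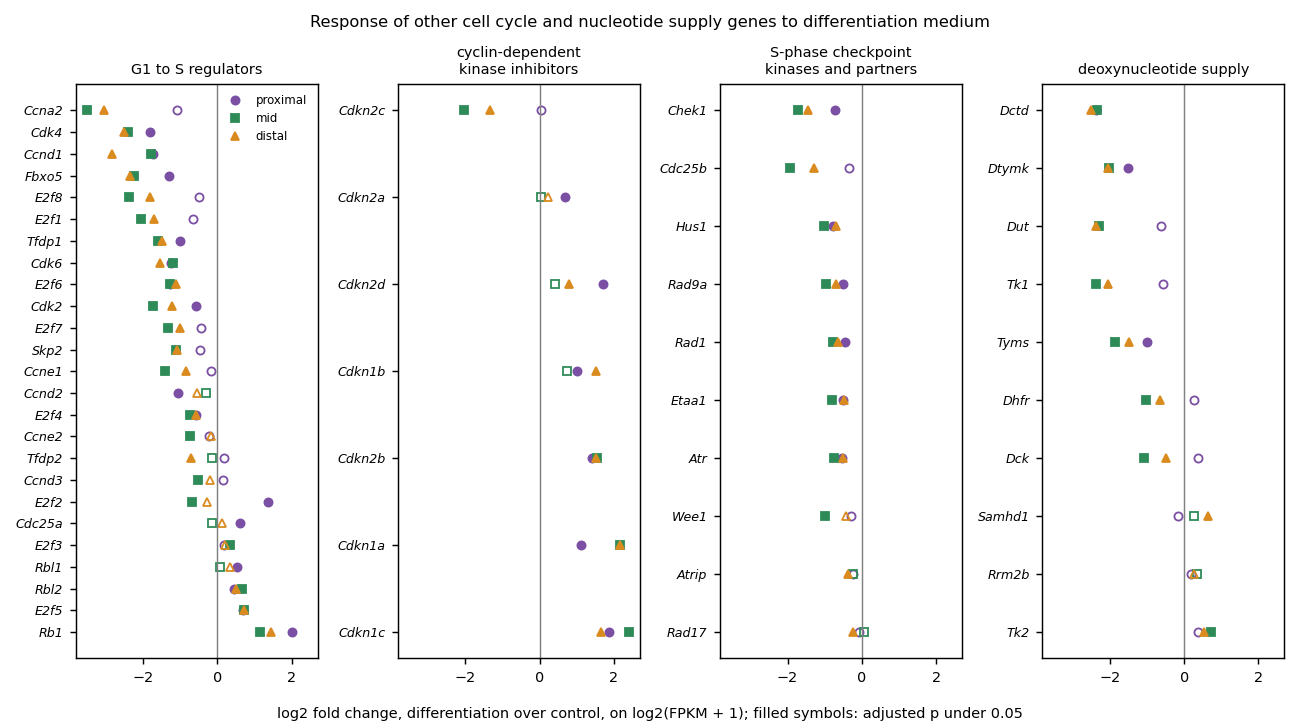
Log2 fold change, differentiation over control, of genes in 4 lists in proximal (circle), mid (square) and distal (triangle) organoids, with filled symbols for an adjusted p under 0.05. Most kinase inhibitors lie to the right of 0 and most checkpoint and nucleotide supply genes to the left, with Rb1 and E2f5 on the right among the G1 to S regulators.

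Most crypt stem cell genes fell in differentiation medium, the direction of the replication genes, and colonocyte genes rose. Of 9 tested crypt stem cell genes, 8 fell and 1 rose in each region, with Sox9, Ascl2 and Axin2 the largest falls and Prom1, which is also found on differentiated epithelium, the one that rose. Of 10 colonocyte genes, 9 rose in proximal and 10 in mid and distal organoids and none fell. Of the 10 listed crypt stem cell genes, 8 to 9 reached an FPKM of 1 in control and 3 to 5 in differentiation libraries. For the colonocyte genes this was 4 to 8 in control and 8 to 10 in differentiation libraries. Genes of both lists could thus pass the filter through the medium where they are high, which limits these counts. The part of both lists in the values of the replication genes was not tested.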

How the data were processed

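Polyadenylated RNA of 18 organoid libraries was sequenced, and per the submitters' processing notes HISAT2 2.0.5, featureCounts 1.5.0-p3 and mm39 were used. The deposited values are FPKM per gene, scaled by the authors, and 6 further columns hold the authors' group means. Strandedness could not be settled from the labels. Dividing each FPKM by what 1 read is worth gave whole reads for 100% of values within 0.001 of a read. The ratio of summed reads to the library size behind the FPKM was 0.959 to 1.32 in differentiation and 0.831 to 0.873 in control libraries. These ranges do not overlap, so this scaling cannot be told apart from the medium. The summed reads were 12827751 to 19938198 in differentiation and 13090322 to 18504587 in control libraries. Mitochondrial genes took 2.46% to 5.57% of reads in differentiation and 2.01% to 2.99% in control libraries.

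FPKM were tested as log2(FPKM + 1), which understates changes of low genes, with limma 3.58.1 in R 4.3.3, using a trended empirical Bayes variance, 1 mean per group and 12 residual degrees of freedom over all 18 libraries. Genes that reached 1 FPKM in 3 or more libraries were kept, and p-values were adjusted by Benjamini-Hochberg over all 12896. Differences between regional responses were interaction contrasts of the same fit. The procedure was tested on simulated data. Replicate numbers were taken as pairs where all 3 same-numbered pairs of the groups compared correlated over 0.1 in their deviations from group means. That held for the 2 media in distal organoids (0.118 to 0.223) and for distal and mid controls (0.149 to 0.542), not for the other comparisons (-0.387 to 0.371). Blocks within these pairs were added after seeing the data. Alternatives changed the pseudocount to 0.1, the filter, the scaling, the replicate block, the variance estimate, the count model (limma voom on recovered reads) and each library. Members and lists were chosen with earlier results of these data known. All members could be named; between regions and for responses the called members were named up to 8, otherwise those with the 4 largest differences, and in the other lists up to 3 per direction called in at least 2 regions. The full list of 13 responses that differed was given after its values were seen.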

Additional observations from a re-analysis of the deposited data

Results flagged for a closer look

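These members' responses to the medium differed between regions by an interaction contrast in limma. Distal minus proximal gave 3 members, Chaf1a (-1.27), Pold2 (-1.67) and Pola2 (-1.26), each with the larger fall in distal organoids. Of all tested genes 4.09% were called lower and 4.16% higher in that contrast. Without proximal differentiation replicate 1 only Pola2 was called. Mid minus proximal gave 13 members, the largest being Rrm2 (-2.39), Pold2 (-1.89), Lig1 (-1.75) and Pola2 (-1.67), beside 6.37% of all tested genes lower and 5.62% higher. Without that replicate 10 members were called. The Pola2 contrasts passed the threshold under each of the 19 alternatives run for them.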

How the results depend on the processing

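The medium comparisons in mid and distal organoids moved little when single libraries were left out, with 43 to 44 and 40 to 42 members called. In proximal organoids 16 to 39 were called, 39 without differentiation replicate 1 and 16 without differentiation replicate 2 or 3 or control replicate 1, and 8 when the fit held only the groups compared. Between controls, mid against proximal gave 4 to 29 and 13 with no filter, distal against proximal 0 to 3 and 1 with no filter, and distal against mid 0 to 0. Between differentiation libraries, distal against proximal gave 3 to 7 (7 without proximal replicate 1), 2 when rescaled to summed reads and 1 with only the groups compared, mid against proximal 2 to 5 (5 without proximal replicate 1), and distal against mid 0 to 0. The distal response difference gave 1 to 4, and 1 with no filter and with only the groups compared. It also gave 1 with a filter of FPKM 5, which left Pola2 and Chaf1a untested. The mid response difference gave 5 to 20 and 6 with no filter.

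Rescaling to summed reads put the median of all genes at -0.25, -0.33 and -0.34 in proximal, mid and distal organoids and called 32, 45 and 45 members lower. Since all genes shifted downward on that scale, the larger counts are not read as a result about the members. Rescaling turned the proximal values of Rfc2 to -0.0016 (adjusted p = 0.999) and of Pola2 to -0.083 (adjusted p = 0.712). Without distal control replicate 2, Rpa3 turned to 0.036 in distal organoids (adjusted p = 0.852), at the top of a range of -0.18 to 0.036 when single libraries were left out. The cause was not tested. limma voom on recovered reads called 3436, 4124 and 3945 genes lower in the 3 regions, and 25, 44 and 41 members.

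With a replicate block over all 18 libraries 23, 44 and 41 members were called in proximal, mid and distal organoids. Between controls, the block gave 2 in distal against proximal, 23 in mid against proximal and 0 in distal against mid, between differentiation libraries 4, 3 and 0, and for the distal and mid response differences 3 and 13. It ended the calls of Chaf1b (proximal), Prim2 (distal against proximal controls) and Pold3 (mid response), and added Cdc45 and Pcna to the mid against proximal controls and the mid response. With pairs in the distal organoids alone 41 members were called, and with pairs in the distal and mid controls alone 0, so no member's call changed in these comparisons. Members below 5 FPKM rest on few reads, as few as 1 for Clspn and 0 for Chaf1b in a distal differentiation library.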
